A study of Mus musculus with 6 samples.

Results

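The HSP70 cochaperones described here are 51 protein-coding genes of the 22913 genes with reads in HL-1, a cell line that was established from mouse atrial cardiomyocytes. They were chosen by symbol: 4 DNAJA, 9 DNAJB and 27 DNAJC genes, 6 BAG genes (Bag1 to Bag6), and Hspbp1, Stub1, St13, Stip1 and Sil1. The HSPA1A cells carried a plasmid that overexpresses the inducible HSP70, which the labels call human, and the control cells carried a control plasmid. Both were delivered with a lipid reagent, and the cells were harvested after 48 h. Each group held 3 libraries of polyadenylated RNA from this 1 cell line, with no allele or other agent named in the labels. The share of cells that took up a plasmid is not given, and the labels do not say whether replicates came from separate cultures. The p-values therefore rest on library-to-library spread alone, part or all of which may be technical.

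HSP70 proteins bind and release unfolded stretches of other proteins in a cycle driven by ATP. J-domain proteins of the DNAJ family bring substrates and trigger ATP hydrolysis, which closes HSP70 on its client, and exchange factors such as the BAG proteins, Hspbp1 and Sil1 reopen it by releasing ADP. St13 slows that release, Stip1 hands clients on to HSP90, and Stub1 attaches ubiquitin to clients bound for degradation. In heart muscle, Bag3 works with HSP70 in the turnover of damaged contractile proteins.

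The libraries held 23849656, 26897086 and 24849547 counts in HSPA1A replicates 1 to 3 and 26445340, 24540652 and 26090167 counts in control replicates 1 to 3. Mouse Hspa1a itself had 17, 20 and 11 counts in the HSPA1A libraries and 10, 17 and 11 counts in the control libraries, with no call by the quasi-likelihood test of edgeR (adjusted p = 0.795 after Benjamini-Hochberg adjustment). A human transcript would be counted there only where its reads match the mouse gene. The first principal component of log2 CPM, with 34.3% of the variance, placed HSPA1A replicates 1 and 3 at -15.9 and -18.3, replicate 2 of that group at 15.1 and the control libraries between 4.33 and 8.27. HSPA1A replicate 2 thus stood apart from its own group, and results that rest on it are given with and without it. Because this library was singled out from these same data, p-values without it are likely too small and serve as description only. Yam1, 1 of 4 listed small or non-polyadenylated RNA genes, took 2.70, 1.58 and 2.53% of the counts in HSPA1A replicates 1 to 3. It took 1.86, 1.18 and 1.23% in the control libraries, with a log2 fold change of 0.72. The other small or non-polyadenylated RNA genes listed, Rmrp, Rn7sk and Rpph1, were higher in every HSPA1A library than in any control library, with log2 fold changes of 1.70, 1.03 and 0.96 and unadjusted p of 0.000118, 0.000407 and 0.00299. None of the 4 was called by edgeR with all libraries (lowest adjusted p = 0.0621, Benjamini-Hochberg). Leaving out HSPA1A replicate 2, 3 of the 4 were called higher, against 5.27% of all genes. The part of these RNA genes in the results was not tested. Of 10 heart muscle markers listed, 9 were measured and Myl7 was not found. Des, Tnnt2, Gata4 and Nkx2-5 averaged 188, 29.8, 8.28 and 2.2 FPKM over the 6 libraries. Myl4 and Mef2c averaged 0.88 and 0.18 FPKM, and Ryr2, Actc1 and Tbx5 were under 0.1 FPKM. The list summed to between 203 and 233 FPKM in HSPA1A libraries and between 238 and 245 FPKM in control libraries. Most of this was Des, which averaged 175 FPKM in HSPA1A and 201 FPKM in control libraries. The 6 fibroblast markers, of which Lum and Thy1 were under 0.1 FPKM, summed to between 65.5 and 71.8 FPKM in HSPA1A libraries and between 73.8 and 75.9 FPKM in control libraries. Of the macrophage markers, Cd68 was detected, Itgam, Ptprc and Csf1r were under 0.1 FPKM and Adgre1 was not found. They summed to between 2.93 and 5.39 FPKM in HSPA1A libraries and between 2.33 and 3.99 FPKM in control libraries. The endothelial and smooth muscle lists stayed at or under 0.2 FPKM in every library. No marker gene was called by edgeR with all libraries, although Des, with no overlap of the groups, and Col1a1 had log2 fold changes of -0.14 and -0.20 and unadjusted p of 0.0178 and 0.0310. Without HSPA1A replicate 2, Col1a1 was called lower, with a log2 fold change of -0.30 and an adjusted p of 0.00358 (edgeR, Benjamini-Hochberg). That fit called 4.94% of all genes lower. The part of these markers in the results was not tested.

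Several cochaperone genes are known targets of heat shock factors, which bind repeats of GAA and TTC letters, so promoters were searched for these letters as a description of the gene set. In RefSeq promoters of GRCm38.p6 (250 bases before to 50 after a start), 41 of the 51 genes were found. The letters GAANNTTC or TTCNNGAA, each of which reads the same on both strands, were in promoters of 9 of the 41 genes (22.0%) and of 17.0% of all 27025 genes in the table. A longer run of 3 alternating GAA and TTC units, each 2 free bases apart, which contains the shorter letters, was in 1 gene of the set, Dnajb6, and in 0.662% of all genes. Matches from genes with different roles are shown in capitals within their 30 bases, each on the strand of the gene and placed by the first base of the match relative to the start.
Dnajb6, an antiaggregation J-domain gene (chr5:29735844-29735873, plus strand, match at -46 from 1 of its starts): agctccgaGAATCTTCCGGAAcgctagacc
Dnaja1, a cytosolic J-domain gene (chr4:40722333-40722362, plus strand, match at -124): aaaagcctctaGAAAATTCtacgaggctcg
Dnajb4, a cytosolic J-domain gene (chr3:152193841-152193870, minus strand, match at -14): ttcgttcgctgTTCTAGAAagtacagagac
Stub1, the ubiquitin ligase gene (chr17:25833024-25833053, minus strand, match at -123): agagcgcggcgGAAGCTTCtcagagctaag
Bag3, the exchange factor gene of contractile protein turnover (chr7:128523603-128523632, plus strand, match 42 bases after the start): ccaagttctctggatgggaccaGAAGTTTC
The other genes with a match were Dnaja4, which had 2, Dnajc10, Dnajc27 and the untested Dnajc5g. The 8 tested genes with the letters had a median log2 fold change of 0.020, from -0.034 to 0.13, and the 31 tested genes without them a median of 0.0039, from -0.22 to 0.255. The heat-inducible Dnajb1 was among the genes without the letters, so this split does not set heat shock targets against other genes. A match is a string of letters and not a shown binding site.

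The levels of the 51 genes were compared on the deposited FPKM scale, which divides by gene length. The most abundant was Stip1, at 180 FPKM on average over the 6 libraries, followed by Bag1 at 127, Dnajc8 at 121 and St13 at 99.8 FPKM. Dnajc8 encodes a J-domain protein associated with the spliceosome. The 4 genes together held 34.2 ± 0.864% of the summed FPKM of the set in HSPA1A libraries and 33.8 ± 0.0991% in control libraries (SD, n = 3 each). In all, 8 genes had at least 50 FPKM, 27 had 10 to 50, 11 had 1 to 10 and 5 were under 1 FPKM (Dnajc28, Dnajc22, Dnajc12, Dnajc6 and Dnajc5g). The heat-inducible Dnajb1 stood in the second band, at 19.1 FPKM, below its relatives Dnajb11 at 73.7, Dnajb9 at 47.9 and Dnajb6 at 42.5 FPKM. These ranks depend on the gene lengths behind the FPKM, which the values imply to be 699 bases for Dnajc15 and 10223 bases for Dnajb14, whereas the annotated exons of Dnajc15 sum to 6513 bases.

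**Figure D1:**
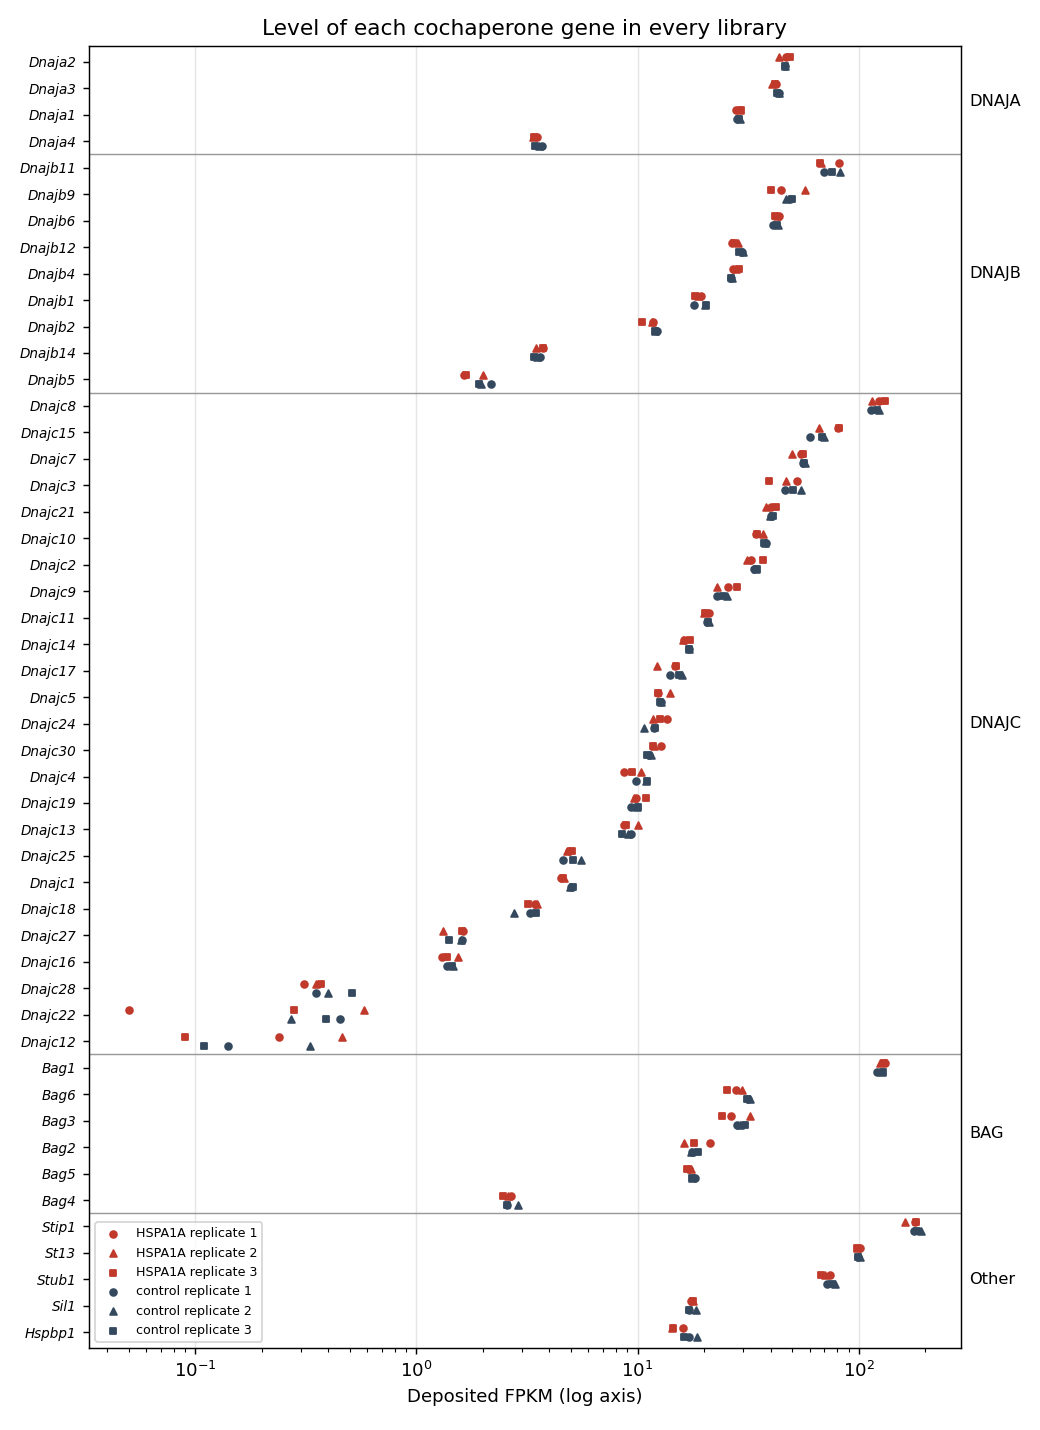
Deposited FPKM of the 49 cochaperone genes with a mean of at least 0.1 FPKM, by class, on a log axis, with 1 point per library (HSPA1A in red above control in dark blue, marker shape by replicate). Levels span from under 1 FPKM to 180 FPKM for Stip1, and the points of both groups lie close together for nearly every gene.

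The summed level of the whole set differed between the groups by less than their spread, at 1541 ± 35.8 FPKM in HSPA1A and 1565 ± 40.8 FPKM in control libraries (SD, n = 3 each). The DNAJ genes summed to 941 ± 21.8 FPKM in HSPA1A and 946 ± 25.7 FPKM in control libraries. The exchange factor genes (Bag1 to Bag5, Hspbp1 and Sil1) summed to 227 ± 4.24 FPKM in HSPA1A and 228 ± 5.63 FPKM in control libraries. Within this set, the ratio of DNAJ to exchange factor FPKM was therefore 4.14 ± 0.0802 in HSPA1A and 4.15 ± 0.0381 in control libraries. The difference was smaller than the spread. Exchange factor and J-domain genes with other symbols, such as Grpel1 at 32.4 and Sec63 at 31.1 FPKM on average, were not counted in it.

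The comparison asked which cochaperone genes differed between cells given the HSPA1A plasmid and control cells. Of the 51 genes, 48 had enough counts to be tested among 12827 genes. None of the 48 was called at an adjusted p under 0.05 by the edgeR test with Benjamini-Hochberg adjustment, against 0.179% of all genes. That background was made up of 0.0234% with higher and 0.156% with lower levels in HSPA1A libraries. DESeq2 also called 0 of the 48, where it called 0.499% of all genes. At an unadjusted p under 0.05, DESeq2 gave 2 of the 48, and its share over all genes was not counted. The edgeR test gave 4 of the 48 (8.33%) at that threshold, against 8.59% of all genes. Higher values in HSPA1A libraries at that threshold were found for Dnajc15, Dnajb4 and Dnajc30, 3 of the 48 against 4.33% of all genes, and lower values for Bag6, 1 of the 48 against 4.26%. The share among the cochaperones was thus near that of all genes.

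The estimates were small and tightly bounded. The 48 log2 fold changes, HSPA1A over control, ran from -0.22 (Dnajc28) to 0.255 (Dnajc15), with a median of 0.016 and quartiles of -0.032 and 0.084, beside a median of 0.0029 over all tested genes. For 46 of the 48 genes (95.8%) the whole 95% interval lay within 1.5-fold either way, against 80.4% of all tested genes. The exceptions were Dnajc28 and Dnajc22, both at under 2 CPM, and the interval of Dnajc22 ran from -1.42 to 1.00. The median standard error was 0.067 for the cochaperone genes and 0.084 for all genes. A test that misses the threshold does not show that levels were equal, and the intervals give the size of change that each gene's data allow. Estimates above 0 were found for 30 of the 48 genes (62.5%), against 51% of all genes. With library totals alone in place of TMM scaling they were found for 21 of the 48, and on log2(FPKM + 1) for 19 of the 51. The background moved as well. With library totals the median log2 fold change was -0.019 for the cochaperone genes and -0.033 for all genes. On log2(FPKM + 1) it was -0.028 and -0.0099, the latter over 22833 genes with no minimum level. At a mean of at least 1 FPKM on that scale it was -0.032 and -0.049. In bulk libraries a transcript held by fewer cells and a lower level per cell cannot be told apart.

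**Figure D2:**
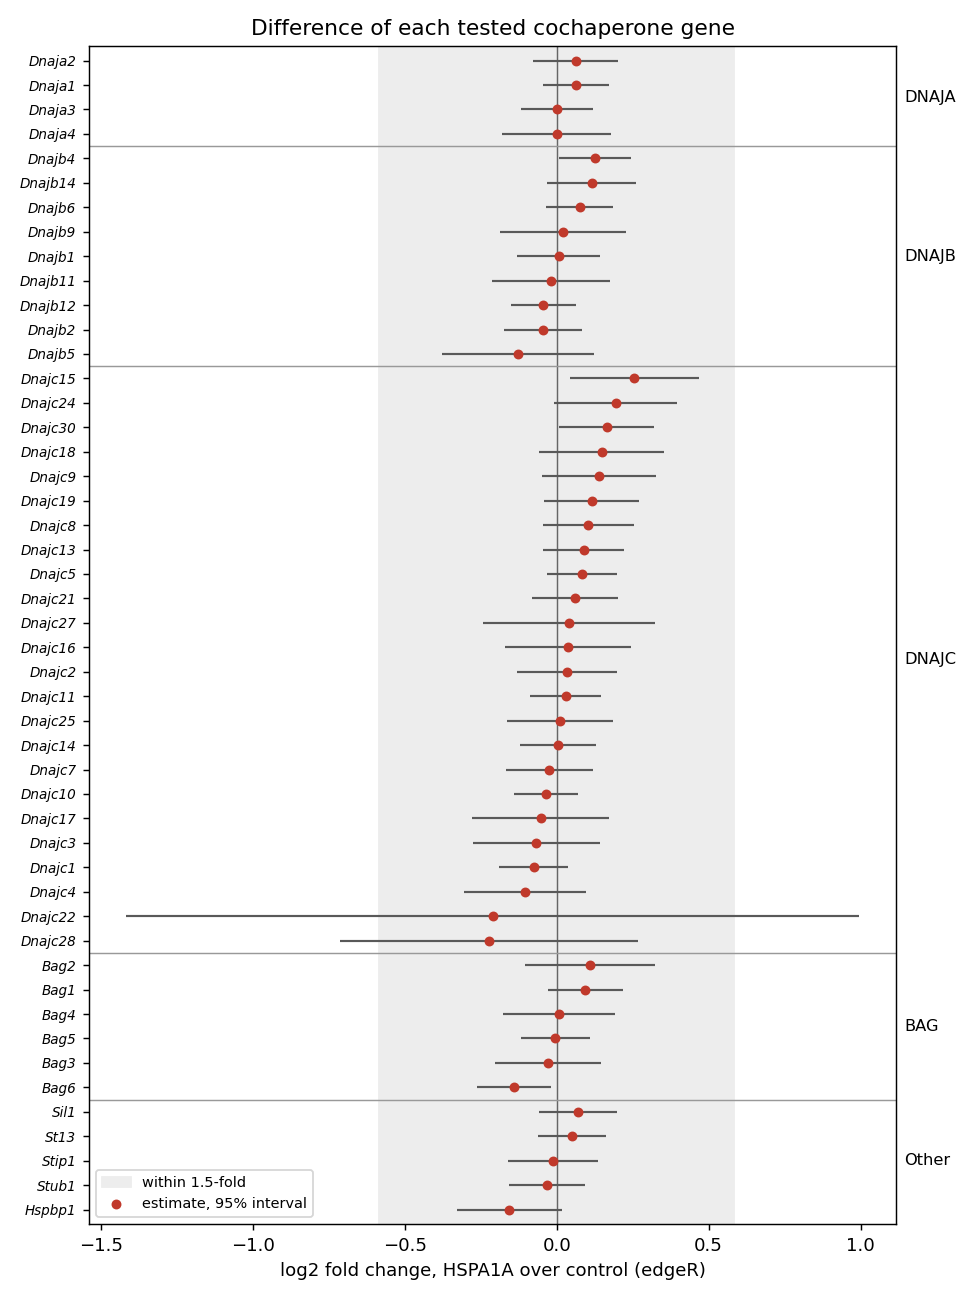
Estimated log2 fold change of each of the 48 tested cochaperone genes, HSPA1A over control, from edgeR, grouped by class. Points are estimates, bars 95% intervals, and the grey band marks 1.5-fold either way, which holds the whole interval of 46 genes.

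The DNAJA genes encode the closest relatives of the bacterial cochaperone DnaJ, of which Dnaja1 and Dnaja2 act in the cytosol and Dnaja3 in mitochondria. Dnaja1 had 180, 179 and 190 CPM (library-scaled counts, normalised by TMM) in HSPA1A replicates 1 to 3 and 175, 176 and 175 CPM in control replicates 1 to 3. All 3 HSPA1A libraries lay above the control libraries, yet by little, and the log2 fold change was 0.063 ± 0.049 (SE), with an adjusted p of 0.765 by edgeR with Benjamini-Hochberg adjustment. Dnaja2 had 149, 132 and 156 CPM in HSPA1A libraries and 141, 139 and 139 CPM in control libraries, so HSPA1A replicate 2 was the lowest of the 6 and the groups overlapped. Dnaja3, at 125, 115 and 125 CPM in HSPA1A and 124, 121 and 119 CPM in control libraries, had a log2 fold change of 0.0018, whose sign turned under several settings. Dnaja1, Dnaja3 and Dnaja4 overlap exons of Smu1, Coro7 and Wdr61 on the other strand, so reads of these neighbours may be included if the authors' counting ignored strand, for which the sources used here give no setting. On the same strand, Dnaja3 overlaps an exon of Vasn, Dnajc14 one of Sarnp and Dnajc25 one of Gm20503, which had 15078, 21475 and 8306 counts summed over the 6 libraries, and reads there cannot be told apart by strand. The other same-strand overlaps, of Dnaja1, Dnajb14 and Stub1, are with genes of at most 9 counts in all.

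Among the DNAJB genes, the founding heat-inducible member Dnajb1 had 49.1, 45.4 and 46.0 CPM in HSPA1A libraries and 43.4, 47.7 and 48.7 CPM in control libraries. The groups overlapped, and the log2 fold change of 0.0061 had a 95% interval from -0.13 to 0.14. The cytosolic Dnajb4 (chromosome 3, 152178511 to 152210302, minus strand of GRCm38) had 87.6, 86.5 and 94.4 CPM in HSPA1A libraries and 82.9, 81.8 and 81.3 CPM in control libraries. Every HSPA1A library was above every control library, with HSPA1A replicate 3 the highest, and the log2 fold change was 0.13 ± 0.053 (SE). Its unadjusted p was 0.0373 and its adjusted p 0.553 (edgeR, Benjamini-Hochberg). Dnajb6, which keeps aggregation-prone proteins soluble and is a muscle disease gene in humans, had 212, 199 and 206 CPM in HSPA1A libraries and 191, 198 and 197 CPM in control libraries. Here too the groups did not overlap, by a margin of little over 1 CPM between HSPA1A replicate 2 and control replicate 2, and the adjusted p was 0.714 (edgeR, Benjamini-Hochberg). Non-overlap of the groups was found for 7 of the 48 genes (14.6%) and for 14.5% of all tested genes. Dnaja1, Dnajb4, Dnajb6, Dnajc30 and Dnajc5 were the 5 with higher values in HSPA1A libraries (7.3% of all genes), and Bag6 and Dnajc1 the 2 with lower values (7.17% of all genes).

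The J-domain and exchange factor genes of the endoplasmic reticulum assist Hspa5 (BiP), the HSP70 of that compartment, in folding secreted proteins. Of 8 such genes (Dnajb9, Dnajb11, Dnajb12, Dnajb14, Dnajc1, Dnajc3, Dnajc10 and Sil1), none was called, no unadjusted p of edgeR was under 0.05, and the median log2 fold change was -0.026. That median was 0.025 without HSPA1A replicate 3, with 5 of the 8 genes above 0, -0.044 without HSPA1A replicate 2, -0.0093 without control replicate 2, -0.062 with library totals alone and -0.084 on log2(FPKM + 1). Their summed level was 254 ± 17.1 FPKM in HSPA1A and 268 ± 10.0 FPKM in control libraries (SD, n = 3 each). The list was chosen by hand and may not hold every member of this compartment, so the median and the sum depend on it. Dnajc14, Dnajc16, Dnajc18 and Dnajc25, which were not on it, had log2 fold changes of 0.0039, 0.037, 0.15 and 0.011. Dnajb11, a BiP partner that binds unfolded clients directly, had 294, 232 and 242 CPM in HSPA1A libraries and 241, 278 and 258 CPM in control libraries. The HSPA1A libraries thus held both the highest and the lowest value of the 6. Dnajb9, a stress-induced partner of BiP, had 93.0, 114 and 84.1 CPM in HSPA1A libraries and 97.4, 91.6 and 97.9 CPM in control libraries, again with the HSPA1A group on both sides. Sil1, the exchange factor of BiP, had 32.9, 32.2 and 33.7 CPM in HSPA1A libraries and 31.0, 32.8 and 30.4 CPM in control libraries. Dnajb14, an ER membrane J-domain gene, had a log2 fold change of 0.12 ± 0.066 (SE) and an adjusted p of 0.657 (edgeR, Benjamini-Hochberg). Dnajc18, another membrane J-domain gene, was not among the 8. It stood at 19.8, 19.3 and 18.5 CPM in HSPA1A libraries and 17.95, 14.96 and 19.03 CPM in control libraries, and the groups overlapped.

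The 5 genes listed as mitochondrial, Dnaja3, Dnajc11, Dnajc15, Dnajc19 and Dnajc30, serve protein import, folding and membrane structure. All 5 had estimates above 0 with TMM scaling, from 0.0018 to 0.255 and with a median log2 fold change of 0.11, where 51% of all genes had estimates above 0. The list was chosen by hand and may not hold every mitochondrial member, so this shared direction depends on it. Dnajc4 and Dnajc28, which were not on it, had log2 fold changes of -0.10 and -0.22. With library totals alone or on the FPKM scale Dnaja3 and Dnajc11 were below 0, as they were without HSPA1A replicate 1, and Dnaja3 was below 0 without HSPA1A replicate 3, control replicate 2 or control replicate 3. The median was 0.042 without HSPA1A replicate 3, 0.18 without HSPA1A replicate 2 and 0.050 on log2(FPKM + 1). None was called by edgeR with all libraries, and Dnajc15 and Dnajc30, 2 of the 5, had an unadjusted p under 0.05, against 8.59% of all genes. Without HSPA1A replicate 2, 1 of the 5 (Dnajc15) was called, against 10.2% of all genes. The summed level was 160.2 ± 10.50 FPKM in HSPA1A and 151.5 ± 5.46 FPKM in control libraries (SD, n = 3 each), a difference within the spread. Dnajc15 alone averaged 75.9 FPKM in HSPA1A and 66.3 FPKM in control libraries, so the sum leans on this gene and on its implied length of 699 bases.

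Dnajc15 had the largest estimate of the 48 genes and the smallest p. It encodes an inner-membrane J-domain protein also known as MCJ, which restrains respiratory complex I, and lies on chromosome 14 at 77820681 to 77875125, minus strand of GRCm38. Its values were 58.1, 45.5 and 59.1 CPM in HSPA1A replicates 1 to 3 and 41.9, 47.6 and 46.8 CPM in control replicates 1 to 3. HSPA1A replicates 1 and 3 stood above all control libraries, and HSPA1A replicate 2 lay among them. The log2 fold change was 0.255 ± 0.096 (SE), with a 95% interval from 0.043 to 0.47, an unadjusted p of 0.0228 and an adjusted p of 0.517 (edgeR, Benjamini-Hochberg). Without a filter on low counts the adjusted p of Dnajc15 was 0.0443.

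The related Dnajc19, a subunit of the motor that pulls proteins into the mitochondrial matrix, had 43.8, 41.1 and 49.2 CPM in HSPA1A libraries and 39.9, 41.7 and 42.3 CPM in control libraries. Only HSPA1A replicates 1 and 3 exceeded the control range, and the adjusted p was 0.682 (edgeR, Benjamini-Hochberg). Dnajc30, which works with the respiratory chain, had 23.7, 21.1 and 21.9 CPM in HSPA1A libraries and 20.1, 19.9 and 19.4 CPM in control libraries. All HSPA1A libraries were above all control libraries, with a log2 fold change of 0.16 ± 0.071 (SE), an unadjusted p of 0.0405 and an adjusted p of 0.562 (edgeR, Benjamini-Hochberg). Dnajc30 overlaps an exon of Bud23 on the other strand, and Dnajc19 one of Fxr1, so their counts carry the strand limit stated for Dnaja1.

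The remaining DNAJC genes share the J domain and little else, and act in processes from splicing to vesicle release. Dnajc8 had 193, 172 and 206 CPM in HSPA1A libraries and 171, 181 and 179 CPM in control libraries, with HSPA1A replicate 2 near the bottom of the 6 and the other HSPA1A libraries on top. Dnajc9, a J-domain chaperone of histones, had 47.0, 39.9 and 51.3 CPM in HSPA1A libraries and 39.9, 43.4 and 42.1 CPM in control libraries, in the same arrangement. Dnajc24, needed for the diphthamide modification of elongation factor eEF2, had 18.1, 15.1 and 16.9 CPM in HSPA1A libraries and 15.1, 13.4 and 15.1 CPM in control libraries. Its log2 fold change was 0.19 ± 0.092 (SE), the second highest of the set, with an adjusted p of 0.604 (edgeR, Benjamini-Hochberg). Dnajc5, the cysteine string protein of secretory vesicles, had 93.6, 101 and 93.3 CPM in HSPA1A libraries and 91.9, 90.2 and 89.6 CPM in control libraries, so the groups did not overlap and HSPA1A replicate 2 was the highest. Dnajc7, which binds both HSP70 and HSP90, had 143, 124 and 146 CPM in HSPA1A libraries and 139.7, 139.8 and 139.8 CPM in control libraries, where HSPA1A replicate 2 alone lay below the tight control values. Dnajc12, Dnajc6 and Dnajc5g had too few counts to be tested, with at most 17, 5 and 1 counts in any HSPA1A library and at most 11, 7 and 1 counts in any control library.

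Among the exchange factors, Bag1, which also binds the proteasome, had 197.5, 179 and 197 CPM in HSPA1A libraries and 174, 180 and 183 CPM in control libraries. HSPA1A replicates 1 and 3 were the highest of the 6, and the log2 fold change was 0.095 ± 0.056 (SE), with an adjusted p of 0.670 (edgeR, Benjamini-Hochberg). Bag3 had 76.9, 88.7 and 70.2 CPM in HSPA1A libraries and 78.5, 78.6 and 83.7 CPM in control libraries. HSPA1A replicate 2 was the highest and HSPA1A replicate 3 the lowest, so the mean of the group lay within the control range. Hspbp1, an exchange factor of cytosolic HSP70, had 26.6, 22.6 and 24.3 CPM in HSPA1A libraries and 27.3, 28.9 and 25.6 CPM in control libraries. The groups overlapped through HSPA1A replicate 1 and control replicate 3, and the log2 fold change was -0.16 ± 0.078 (SE), with an adjusted p of 0.612 (edgeR, Benjamini-Hochberg). Without HSPA1A replicate 2 the log2 fold change of Hspbp1 was -0.098, and leaving out each library in turn gave a range from -0.22 to -0.098. Bag2, Bag4 and Bag5 had log2 fold changes between -0.0038 and 0.11, the highest being that of Bag2, which was 0.22 without HSPA1A replicate 2, with an adjusted p of 0.0557 (edgeR, Benjamini-Hochberg).

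Bag6 carries a BAG-type domain but works mainly in the sorting and degradation of membrane proteins that fail insertion, and lies on chromosome 17 at 35135178 to 35147322, plus strand of GRCm38. It had 126, 128 and 115 CPM in HSPA1A libraries and 137, 137 and 134 CPM in control libraries. Every HSPA1A library was below every control library, with HSPA1A replicate 3 the lowest. The log2 fold change was -0.14 ± 0.055 (SE), with a 95% interval from -0.26 to -0.019, an unadjusted p of 0.0272 and an adjusted p of 0.528 (edgeR, Benjamini-Hochberg).

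Of the adaptors and the ligase, Stip1 had 438, 377 and 444 CPM in HSPA1A libraries and 415, 436 and 419 CPM in control libraries. HSPA1A replicate 2 was the lowest of the 6 and the other HSPA1A libraries the highest. St13 had 380, 351.5 and 368 CPM in HSPA1A libraries and 357, 354 and 351 CPM in control libraries, and HSPA1A replicate 2 lay within the control range. Stub1 had 138, 125.5 and 127 CPM in HSPA1A libraries and 129, 137 and 133 CPM in control libraries, overlapping throughout. The adjusted p of these genes was 0.967, 0.822 and 0.902 by edgeR with Benjamini-Hochberg adjustment.

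The same library recurs in these values. HSPA1A replicate 2 lay on the other side of the control mean from HSPA1A replicates 1 and 3 for 22 of the 48 genes (45.8%), against 35% of all tested genes. Examples are Stip1, Dnajc7, Dnajc8, Dnajc9 and Dnaja2, where replicate 2 was below the control mean and replicates 1 and 3 above it, and Bag3 and Dnajb9, where replicate 2 was above and the others below. The SD of log2 CPM was larger among HSPA1A than among control libraries for 38 of the 48 genes (79.2%), against 69.4% of all genes.

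**Figure D3:**
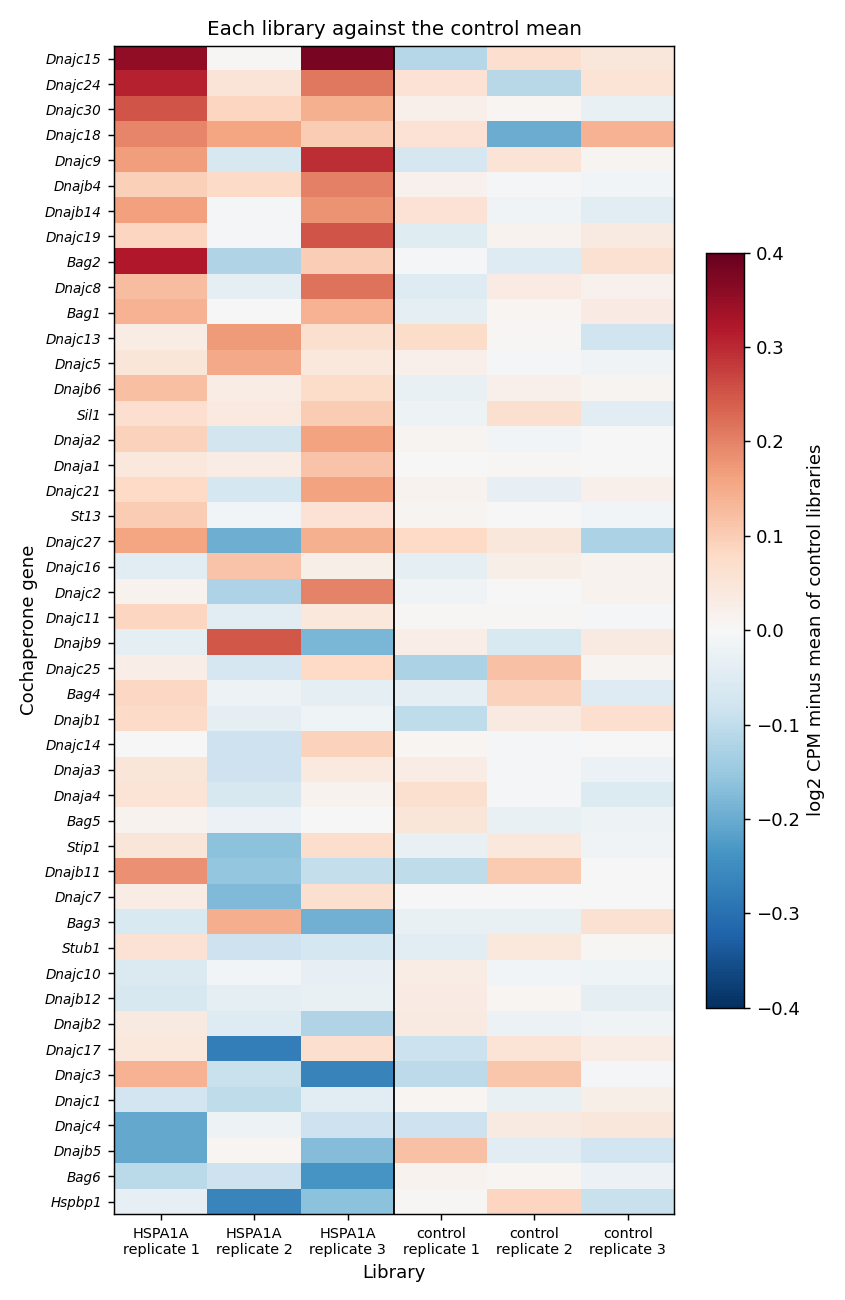
Log2 CPM of 46 cochaperone genes in each library minus the mean of the control libraries, with HSPA1A libraries on the left, red for higher and blue for lower, and genes ordered by log2 fold change. The column of HSPA1A replicate 2 differs in sign from its neighbours for genes such as Stip1, Dnajc9 and Bag3. Genes under 2 CPM in control libraries are not drawn.

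Without HSPA1A replicate 2, 4 of the 48 genes (8.33%) were called by edgeR with Benjamini-Hochberg adjustment, against 10.2% of all 12955 genes then tested. Dnajc15 rose in that comparison, with a log2 fold change of 0.37 and an adjusted p of 0.00147, as did Dnajc9 (0.24, adjusted p = 0.0208) and Dnajc8 (0.17, adjusted p = 0.0289). The 3 higher genes compare with 5.27% of all genes. Bag6 fell, with a log2 fold change of -0.17 and an adjusted p of 0.0384, where 4.94% of all genes were called lower. With all libraries the same 4 genes had log2 fold changes of 0.255, 0.14, 0.10 and -0.14 and no call. Calls in that fit were about as common among the cochaperones as among all genes. The library left out was singled out from these same values, so p-values of that fit are likely too small and descriptive only. Leaving out any other single library gave 0 calls among the cochaperone genes. At an unadjusted p under 0.05, edgeR gave 15 of the 48 without HSPA1A replicate 2 and 0 to 4 cochaperone genes without any other library. The share of all genes at the unadjusted threshold was not counted for these fits, so these counts have no background beside them.

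**Figure D4:**
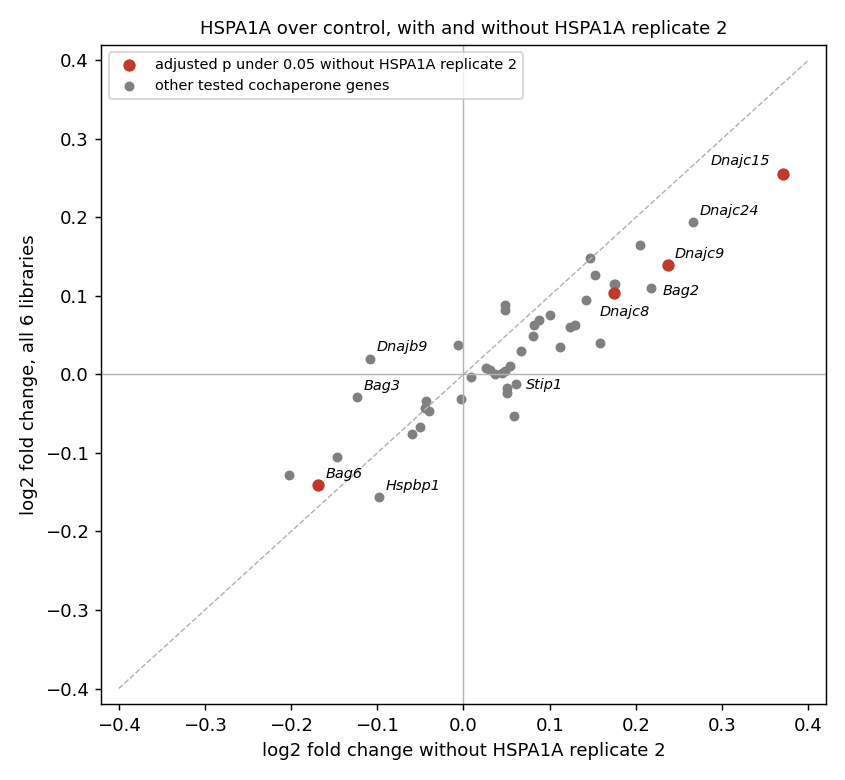
Log2 fold change of 46 tested cochaperone genes, HSPA1A over control, without HSPA1A replicate 2 (horizontal) and with all 6 libraries (vertical). Each point is a gene, red points are the 4 genes called at an adjusted p under 0.05 without that library, and the dashed line marks equal values; the sign of Dnajb9 and of Stip1 differs between the axes.

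The HSP70 genes that these cochaperones serve were likewise not called with all libraries. Of 15 HSP70 and HSP110 genes, 13 were tested, 0 were called by edgeR and 0 reached its unadjusted threshold of 0.05, and the median log2 fold change was 0.010. Hspa8, the constitutive cytosolic HSP70 to which most of the DNAJA, DNAJB and BAG proteins couple, had 433, 584 and 426 CPM in HSPA1A libraries and 526, 518 and 504 CPM in control libraries. HSPA1A replicate 2 was the highest and HSPA1A replicates 1 and 3 the lowest of the 6, and without replicate 2 the log2 fold change was -0.26, with an adjusted p of 0.00186 (edgeR, Benjamini-Hochberg), against -0.10 and 0.822 with all libraries. Hspa5 had 9323, 7646 and 7651 CPM in HSPA1A libraries and 8208, 9072 and 8705 CPM in control libraries, which overlapped. Hspa9, the mitochondrial HSP70, had 1854, 1679 and 1856 CPM in HSPA1A libraries and 1747, 1747 and 1755 CPM in control libraries. Of 9 HSP90 genes and cochaperones, 0 were called by edgeR with all libraries and 2 (Fkbp4 and Fkbp5, both with lower values in HSPA1A libraries) had an unadjusted p under 0.05, against 8.59% of all genes. Without HSPA1A replicate 2, 3 of the 9 were called, against 10.2% of all genes: Ahsa1 and Ptges3 higher, with adjusted p of 0.0373 and 0.0432, and Hsp90ab1 lower, with an adjusted p of 0.00869 (edgeR, Benjamini-Hochberg).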

How the data were processed

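Paired ends of polyadenylated RNA were read from 3 HSPA1A and 3 control libraries made with a stranded kit, per the labels' protocols. The authors deposited whole read counts per gene and FPKM rounded to 2 decimals, scaled by length and depth per the file headers. TopHat2, bcl2fastq, edgeR and GRCm38 are named in the submitters' processing notes. The sources used here give no counter, strand setting, annotation release or gene lengths. All sample columns were used, so 0 were left out.

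Counts were scaled by TMM, filtered by filterByExpr (minimum count 10, minimum total 15) and compared with edgeR 4.0.16 (quasi-likelihood, no covariates, Benjamini-Hochberg over 12827 genes, threshold 0.05) under R 4.3.3. The biological coefficient of variation was 0.0688. Printed CPM are TMM-scaled. Library totals of 23849656 to 26897086 counts set the precision, and standard errors are printed beside the changes. The members and lists were chosen with earlier results of these data known. Named genes were the 12 tested members with the smallest p, the 3 with the highest mean FPKM in each of the DNAJA, DNAJB, DNAJC and BAG classes, and Dnajb1, Dnaja1, Bag3, Bag1, Stip1, St13, Stub1, Hspbp1 and Sil1. Others were named after their values were seen. The alternatives were other size factors, library totals, DESeq2 1.42.0, limma-voom and limma-trend on log2 FPKM (limma 3.58.1), other filters, a replicate block and each library left out. Positions and overlaps are from GENCODE M21 (GRCm38), in which all 51 genes were found. Figures used matplotlib 3.10.9.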

Additional observations from a re-analysis of the deposited data

How the results depend on the processing

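The count of cochaperone genes called was 0 with all libraries and 0 under DESeq2-type size factors, library totals, DESeq2, limma-voom, 5 CPM in 3 libraries and the FPKM settings. It was 1 (Dnajc15) without a filter on low counts and ranged from 0 to 4 when each library was left out, with 4 only without HSPA1A replicate 2. The count over all genes was 23, against 64 with DESeq2, 205 without a filter, 15 on log2(FPKM + 1) and 15 on that scale at a mean of at least 1 FPKM, and it ranged from 10 (without control replicate 3) to 1323 (without HSPA1A replicate 2) on leaving out a library. The cause was not tested. The median over the tested cochaperone genes ranged from 0.0047 to 0.050 on leaving out a library and was -0.019 with library totals and -0.028 on log2(FPKM + 1). Over all genes the median was -0.033 with library totals and -0.0099 on log2(FPKM + 1). At a mean of at least 1 FPKM on that scale the median was -0.032 for the cochaperone genes and -0.049 for all genes. With the replicate number as a block, 16 genes in all and 0 cochaperone genes were called. Same-numbered libraries deviated from their group means with correlations of -0.10, -0.0015 and 0.085. These values cannot tell whether same-numbered libraries shared a culture or a batch, which the labels do not state. Over the named genes and settings, 378 values kept their direction and side of the threshold, 5 passed it only under the alternative, and 33 changed sign.

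The changes of sign were all in estimates near 0. On library totals alone, without a filter, on log2(FPKM + 1), on log2(FPKM + 0.1) and at a mean of at least 1 FPKM, Dnaja3 had log2 fold changes of -0.035, -0.0059, -0.055, -0.057 and -0.055, and Dnajb1 had -0.030, -0.0012, -0.048, -0.050 and -0.048. On library totals and the FPKM settings Dnajb9 had -0.013, -0.048, -0.049 and -0.048, and on the FPKM settings St13 had -0.0088, -0.0089 and -0.0088. On leaving out a library the log2 fold change ranged from -0.021 to 0.045 for Dnaja3, from -0.13 to 0.050 for Dnajb11, from -0.11 to 0.11 for Dnajb9, from -0.068 to 0.050 for Dnajc7, from -0.12 to 0.048 for Bag3, from -0.043 to 0.040 for Dnajb1 and from -0.053 to 0.061 for Stip1. Genes at a few counts, such as Dnajc22, cannot be judged at this depth, and 18 of the 51 genes overlap an exon on the other strand.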

Other observations

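Genes that work beside the cochaperones were described after their values were seen, from the lists of partners. Grpel1, the exchange factor of the mitochondrial HSP70, had 139.5, 113 and 142 CPM in HSPA1A replicates 1 to 3 and 110, 119.5 and 117 CPM in control libraries, with HSPA1A replicate 2 inside the control range and the other HSPA1A libraries above it. Its log2 fold change was 0.19, with an adjusted p of 0.576 by edgeR with Benjamini-Hochberg adjustment, and 0.29, with an adjusted p of 0.00184, without HSPA1A replicate 2. Grpel2, its relative, had 57.4, 46.6 and 63.8 CPM in HSPA1A libraries and 51.0, 50.3 and 51.3 CPM in control libraries, and an adjusted p of 0.00896 without that library. Pam16, a J-like partner in the import motor that holds Dnajc19, had 33.4, 28.2 and 32.7 CPM in HSPA1A libraries and 26.8, 29.3 and 28.9 CPM in control libraries, and an adjusted p of 0.0328 without it. The fit without HSPA1A replicate 2 called 10.2% of all genes.

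The heat shock factor genes differed in opposite directions and did not pass the threshold with all libraries. Hsf1, the main activator of heat shock genes, had 71.0, 68.1 and 65.2 CPM in HSPA1A libraries and 75.7, 77.3 and 77.7 CPM in control libraries, without overlap. Its log2 fold change was -0.18 and its adjusted p 0.426 by edgeR with Benjamini-Hochberg adjustment. Hsf2 had 52.2, 47.0 and 52.5 CPM in HSPA1A libraries and 46.2, 43.0 and 44.5 CPM in control libraries, also without overlap, with a log2 fold change of 0.18 and an adjusted p of 0.480. Without HSPA1A replicate 2 their adjusted p by edgeR was 0.0430 and 0.0129, in a fit that called 10.2% of all genes. Non-overlap of the groups was found for 14.5% of all tested genes. The cytosolic HSP90 gene Hsp90ab1 had 1491, 1799 and 1477 CPM in HSPA1A libraries and 1748, 1704 and 1698 CPM in control libraries, the same arrangement as Hspa8, with HSPA1A replicate 2 the highest of the 6.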
